A study of Sus scrofa with 3 samples.

Results

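The genes described here are 10 components of elastic fibres and of the microfibrils on which those fibres are built: ELN, FBN1, FBN2, FBLN1, FBLN2, FBLN5, EFEMP2, MFAP2, MFAP4 and EMILIN1. They were taken by name from a table of 30477 pig genes, in which each of the 10 names matched 1 row. The table holds RNA levels in 3 cultures of mesenchymal stem cells (MSC) isolated from the fat of adult pigs and kept in advanced MEM with human platelet lysate. The labels name a single group with no treatment and no control, so the data give levels and how they differ between cultures 1, 2 and 3. The labels do not tie a culture to an animal, so that spread may in part be technical, and the p-values below measure no more than this spread together with that of other genes of like level.

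Elastic fibres give vessels, skin and the stroma of adipose tissue their recoil. Their core is elastin, secreted as the soluble precursor tropoelastin and laid down on a scaffold of fibrillin microfibrils. Some fibulins carry tropoelastin and the enzymes that crosslink it to the scaffold, while microfibril-associated proteins and EMILIN1 sit at the microfibril or at its border with elastin. Microfibrils also hold latent TGF-beta in the matrix through its binding proteins.

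The libraries held 51788677, 62248183 and 64774044 reads over genes in cultures 1, 2 and 3. Levels are in RPKM, which divides a gene's reads by its length and by the depth of the library. In the library of culture 1, 70.3% of the reads fell on protein-coding genes, against 88.6% and 88.8% in cultures 2 and 3. Culture 1 also lacked reads over the Y-linked genes KDM5D and EIF1AY, named after their values were seen, which had 4.10 to 9.38 RPKM in the other cultures. Of 7 surface markers of the labelled cell type, 6 exceeded 1 RPKM and ALCAM lay below (all genes, 30.6% and 60.8%). All 5 adipocyte and all 6 macrophage and leukocyte markers lay below, as did 6 of 7 endothelial and 4 of 5 chondrocyte markers (all genes, 60.8%). The exceptions were PECAM1 and SOX9. Among the markers above 1 RPKM, the gene body of PECAM1 overlaps DDX5 and POLG2, and that of the surface marker ENG overlaps FPGS. The part of these neighbours in the reads of PECAM1 and ENG was not tested. The macrophage and leukocyte markers summed to at most 0.735 RPKM in a culture, the adipocyte markers to at most 0.792 and the endothelial markers to at most 3.33. In bulk samples, fewer cells expressing a gene and less of its RNA per cell cannot be told apart.

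The cultures held far more RNA of the fibrillin FBN1 than of elastin. FBN1 was the highest of the 10 genes, 7 of the 10 lay above 1 RPKM, and ELN itself was close to 1 RPKM. FBN2 was the 1 gene that lay below. The test was limma's moderated test of the mean log2(RPKM + 0.5) against its value at 1 RPKM, with Benjamini-Hochberg adjustment over 29479 genes with a read. Over all of these genes, 30.6% lay above 1 RPKM and 60.8% below. The median of the 10 genes was 7.42, 10.2 and 10.8 RPKM in cultures 1, 2 and 3, against 0.144, 0.151 and 0.0915 RPKM over all genes with a read. Against the 10474 genes that averaged 1 RPKM or more, whose medians were 5.25, 6.91 and 6.11 RPKM, the median of the 10 genes was also the higher in each library. Summed over the 10 genes the level was 192, 393 and 332 RPKM, which took 0.135%, 0.317% and 0.265% of the reads.

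**Figure D1:**
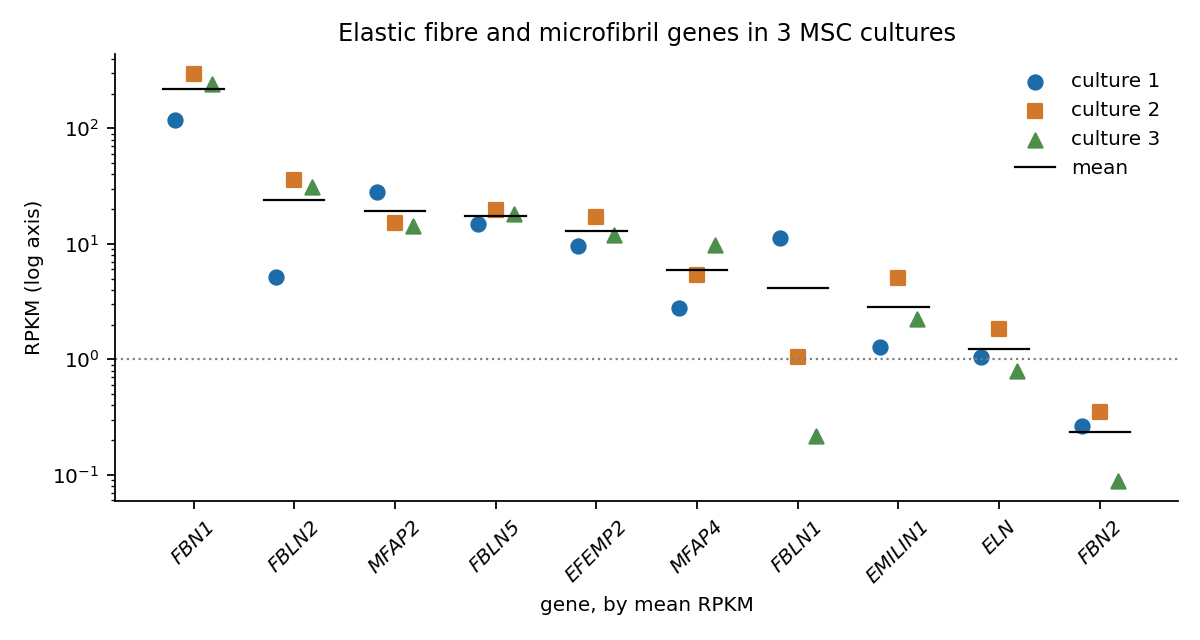
RPKM of each gene in cultures 1, 2 and 3 (points, log axis) with the mean (line), ordered by mean, and the level of 1 RPKM as a dotted line. FBN1 stands above 100 RPKM in each culture, FBN2 below 1 RPKM in each, and FBLN1 spreads between 0.216 and 11.2 RPKM.

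Fibrillins form the microfibril backbone. FBN1 (ENSSSCG00000004658, chromosome 1, 123102009 to 123359649, susScr11), the main fibrillin of adult tissues and the gene mutated in Marfan syndrome, had 118, 293 and 243 RPKM in cultures 1, 2 and 3. Culture 1 was the low one, and cultures 2 and 3 lay close together. The mean was 218 ± 90.1 RPKM (SD, n = 3), which ranked 221 of 30477 genes, and the log2 level exceeded that of 1 RPKM by 7.09 (SE 0.33; limma, adjusted p = 3.5e-20). Such small p-values borrow from the spread of the whole table, and over the alternative settings the largest adjusted p for FBN1 was 0.00041. FBN1 alone made up 61.3%, 74.4% and 73.3% of the summed RPKM of the 10 genes.

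FBN2 (ENSSSCG00000014256, chromosome 2, 131152127 to 131370466), the fibrillin used mainly in development, had 0.267, 0.351 and 0.0885 RPKM in cultures 1, 2 and 3. These values rest on 130, 206 and 54 reads, and culture 3 was the lowest. Counting error alone gives exact 95% Poisson intervals of 0.305 to 0.403 RPKM in culture 2 and 0.0665 to 0.115 RPKM in culture 3. The mean of 0.235 ± 0.134 RPKM (SD, n = 3) lay below 1 RPKM (limma, adjusted p = 7.8e-07), in 3 of 3 cultures. The level was nevertheless 3.18, 5.67 and 5.96 times the median of 23 markers of endothelial, leukocyte, adipocyte and chondrocyte cells. That median was 0.0838, 0.0619 and 0.0148 RPKM in cultures 1, 2 and 3, and 28310, 28395 and 24503 genes had a read. The part of this difference between libraries in the low FBN2 value of culture 3 was not tested. Of those 23 markers, 2, 2 and 4 stood at or above FBN2 in cultures 1, 2 and 3. Within a library, FBN1 exceeded FBN2 by 442-fold, 833-fold and 2751-fold.

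Elastin (ELN, ENSSSCG00000025858, chromosome 3, 11214073 to 11244897), the elastic core itself, had 1.04, 1.84 and 0.786 RPKM in cultures 1, 2 and 3, from 128, 272 and 121 reads. Culture 2 was highest, and cultures 1 and 3 had overlapping 95% counting intervals of 0.867 to 1.24 and 0.652 to 0.939 RPKM. The mean of 1.22 ± 0.549 RPKM (SD, n = 3) was not separated from 1 RPKM (limma, adjusted p = 0.57). FBN1 exceeded ELN by 113-fold, 159-fold and 310-fold in cultures 1, 2 and 3. This direction held in 3 of 3 libraries, with p = 0.25 by an exact two-sided permutation test that flips the signs of the log2 ratios, which cannot go lower with 3 libraries.

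The short fibulins 4 and 5 bring tropoelastin to the scaffold, and loss of either in mice disrupts elastic fibres. FBLN5 (ENSSSCG00000002444, chromosome 7, 113423629 to 113522069), which binds elastin and integrins, had 15.0, 19.5 and 18.1 RPKM in cultures 1, 2 and 3. It was the steadiest of the 10 genes, with a 1.31-fold range. Of the 10474 genes that averaged 1 RPKM or more, 77.3% had a range at least as wide. EFEMP2 (ENSSSCG00000012971, chromosome 2, 6450332 to 6463493), which encodes fibulin 4 and draws lysyl oxidase to tropoelastin, had 9.67, 17.0 and 12.0 RPKM. Culture 2 was again highest and culture 1 lowest, although with each library scaled to its protein-coding reads culture 3 came to 0.984 of culture 1. Both genes lay above 1 RPKM in 3 of 3 cultures, with means of 17.5 ± 2.34 for FBLN5 and 12.9 ± 3.72 RPKM for EFEMP2 (SD, n = 3 each). The EFEMP2 gene body shares its ends with CTSW and MUS81, whose reads over their whole models were at most 302 against at least 1811 for EFEMP2. The ratio of EFEMP2 to FBLN5 was 0.647, 0.869 and 0.664, a mean log2 ratio of -0.47 ± 0.24 (SD, n = 3; exact two-sided sign-flip permutation p = 0.25).

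The fibulins 1 and 2, larger and related proteins that bind fibronectin, elastin and basement membrane components, had the widest ranges of the 10 genes, with culture 1 the highest for FBLN1 and the lowest for FBLN2. FBLN1 (ENSSSCG00000000010, chromosome 5, 3839501 to 3927183) had 11.2, 1.05 and 0.216 RPKM in cultures 1, 2 and 3, from 2199, 247 and 53 reads. Culture 1 was far above the others, and the exact 95% counting intervals of the 3 cultures did not overlap. FBLN2 (ENSSSCG00000011609, chromosome 13, 70757265 to 70830388) had 5.16, 35.6 and 31.2 RPKM, so that culture 1 was here the low one. The ratio of FBLN2 to FBLN1 was therefore 0.460 in culture 1, 34.0 in culture 2 and 144 in culture 3. Since the library scaling cancels in this ratio, it is the same under any scaling. Its mean log2 value of 3.71 ± 4.31 (SD, n = 3) was smaller than its spread (exact two-sided sign-flip permutation, p = 0.50).

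The range of FBLN1 between cultures was 51.9-fold, and 37 of 10474 genes (0.353%) that averaged 1 RPKM or more had a range at least as wide. FBLN1 reached that mean through the high value of culture 1 (11.2 RPKM, against 1.05 and 0.216 RPKM in cultures 2 and 3). For FBLN1, this share and the filtered F test below therefore only describe the values. The 6.90-fold range of FBLN2 was reached by 294 genes (2.81%). Each gene's variance between cultures was set against the variance limma expects at that level, by an F test over the 10474 genes. Of the 9 genes that reached the mean of 1 RPKM, 0 passed after Benjamini-Hochberg adjustment, and over all genes 0% did. Before adjustment 2 of the 9 genes were under the threshold of 0.05, against 5.93% of all genes. They were FBLN1 (limma, adjusted p = 0.61) and FBLN2 (limma, adjusted p = 0.64). Both passed when all 29479 genes with a read were fitted (limma, adjusted p = 0.0013 for FBLN1 and 0.040 for FBLN2). They also passed without culture 3 (limma, adjusted p = 0.0034 and 0.0032). Neither passed without culture 1 (limma, adjusted p = 0.93 and 0.996) or without culture 2 (adjusted p = 0.32 and 0.57). The fits with a culture left out rest on 2 libraries and kept the filter on the mean over all cultures. For FBLN1 they therefore also only describe the values. In simulated data with spreads as unlike as those measured, the test called 1% of genes given a log2 SD of 2, so that the count of 0 does not show that the levels were alike.

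The level of FBLN1 was not separated from 1 RPKM (4.16 ± 6.13 RPKM, SD, n = 3; limma, adjusted p = 0.63), and its mean log2 level lay 0.65 above that of 1 RPKM. Without culture 1 it lay below by 0.51 (adjusted p = 0.29), and without culture 3 it lay above by 1.51 (adjusted p = 0.048). FBLN2, with 24.0 ± 16.5 RPKM (SD, n = 3), lay above 1 RPKM in 3 of 3 cultures (limma, adjusted p = 0.0096). FBLN1 was high in the library that also had the lower share of protein-coding reads and no reads of KDM5D and EIF1AY. The part of these differences in the FBLN1 result was not tested. When each library was scaled to its protein-coding reads, FBLN1 in culture 2 was still 0.0742 of its level in culture 1, and in culture 3 0.0153.

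**Figure D2:**
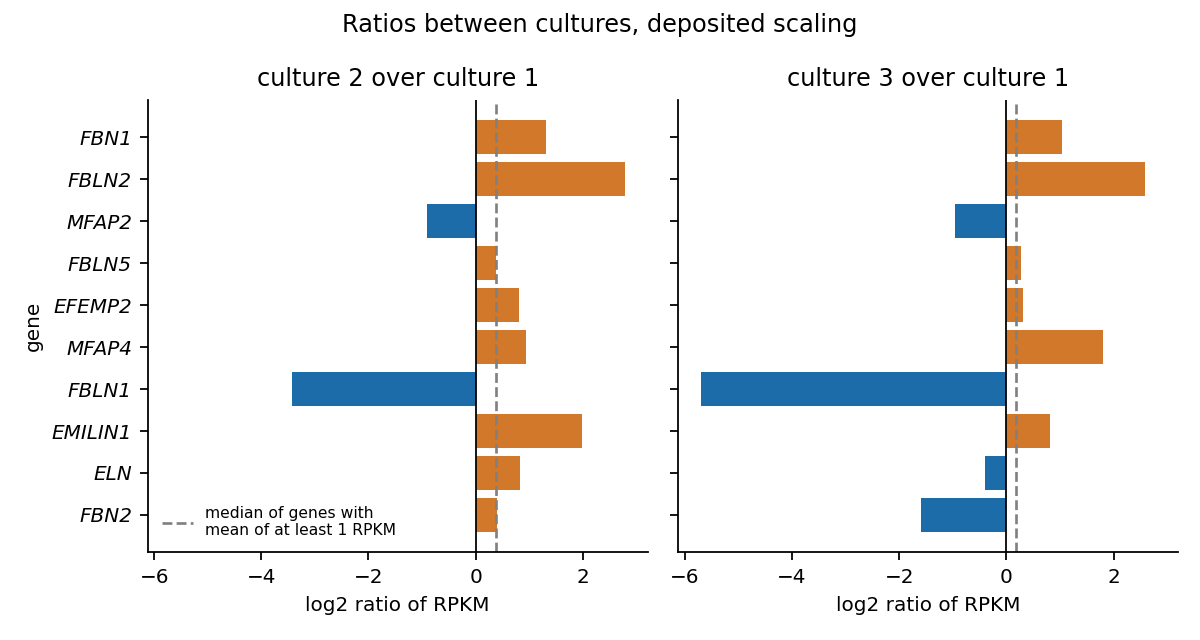
Log2 ratio of RPKM in culture 2 over culture 1 (left) and culture 3 over culture 1 (right) for the 10 genes, with the median of 10474 genes that averaged 1 RPKM or more as a dashed line (0.38 left, 0.17 right). FBLN1 and MFAP2 lie below 0 in both panels, and FBLN2 has the highest ratio in both.

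The microfibril-associated proteins sit on the fibrillin scaffold. MFAP2 (ENSSSCG00000003479, chromosome 6, 75607513 to 75615641), also called MAGP-1, binds fibrillin and TGF-beta family ligands. It had 28.0, 15.0 and 14.3 RPKM in cultures 1, 2 and 3, with culture 1 high and the others close together. MFAP2 thus stood with FBLN1 as a gene highest in culture 1, as were 22.3% of the 10474 genes, or 42.2% when scaled to protein-coding reads. Culture 1 was thus the highest for MFAP2 and the lowest for FBN1, and the ratio of MFAP2 to FBN1, a pair chosen after the values were seen, was 0.238 in culture 1 and 0.0513 and 0.0589 in cultures 2 and 3. The mean of 19.1 ± 7.72 RPKM (SD, n = 3) lay above 1 RPKM in 3 of 3 cultures (limma, adjusted p = 3.0e-15).

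MFAP4 (ENSSSCG00000036007, chromosome 12, 60137566 to 60144201), a secreted fibrinogen-domain protein that binds elastin and fibrillin, had 2.77, 5.34 and 9.69 RPKM in cultures 1, 2 and 3. It was the 1 gene of the 10 that was highest in culture 3, as were 23.3% of the 10474 genes. With median-of-ratios size factors 4 of the 10 genes, MFAP4 among them, and 60.8% of the 10474 genes were highest in culture 3. Its mean of 5.93 ± 3.50 RPKM (SD, n = 3) lay above 1 RPKM (limma, adjusted p = 9.0e-07). In the deposited table its gene body lies wholly within that of MAPK7, which had 268, 528 and 291 reads against 391, 906 and 1712 for MFAP4. In RefSeq on Sscrofa11.1, MFAP4 and MAPK7 share 64 bases. Without a stated strand, reads over the shared stretch cannot be assigned to either gene. The ratio of MFAP4 to MFAP2 was 0.0987, 0.356 and 0.675 in cultures 1, 2 and 3, a mean log2 ratio of -1.80 ± 1.41 (SD, n = 3; exact two-sided sign-flip permutation p = 0.25).

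EMILIN1 (ENSSSCG00000008557, chromosome 3, 112031919 to 112046437), a glycoprotein at the border of elastin and microfibrils that restrains TGF-beta maturation in mice, had 1.27, 5.01 and 2.24 RPKM. Culture 2 was highest and culture 1 lowest, a 3.95-fold range. The mean of 2.84 ± 1.94 RPKM (SD, n = 3) lay above 1 RPKM (limma, adjusted p = 0.0022), but not once culture 2 was left out (adjusted p = 0.14). Its gene model in the table runs past the EMILIN1 of RefSeq on Sscrofa11.1, across the long non-coding RNA LOC106509868 and 322 bases of OST4, so reads of these may be counted with it. The model also shares 85 bases with AGBL5, which had 100, 151 and 135 reads against 318, 1510 and 701 for EMILIN1. FBN1 exceeded EMILIN1 by 92.9-fold, 58.3-fold and 109-fold in cultures 1, 2 and 3.

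**Figure D3:**
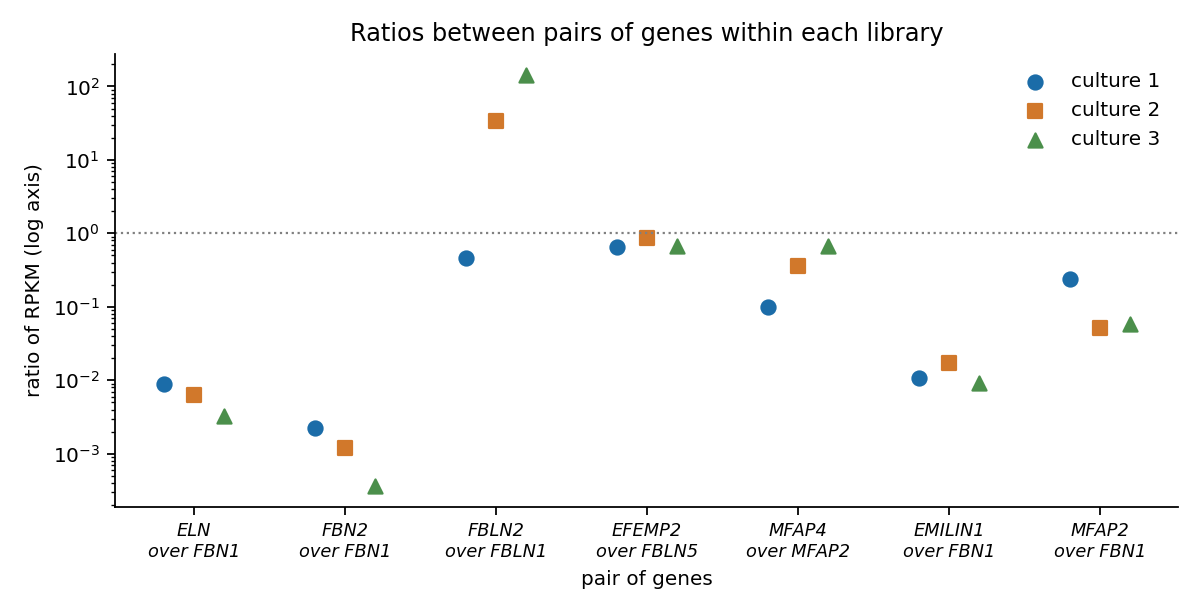
Ratio of RPKM between pairs of genes within each library (log axis), with a ratio of 1 as a dotted line. The ratio of FBLN2 to FBLN1 ranges 314-fold over the cultures, and that of EFEMP2 to FBLN5 1.34-fold.

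By mean RPKM the order was FBN1, FBLN2, MFAP2, FBLN5, EFEMP2, MFAP4, FBLN1, EMILIN1, ELN and FBN2. FBN1 at the top and FBN2 at the bottom had ranges apart from their neighbours. The other 7 of the 9 neighbouring pairs had overlapping ranges over the cultures, and 5 of the 9 pairs kept their order in each culture. Culture 2 was highest for 7 of the 10 genes, against 54.4% of the 10474 genes, and culture 1 lowest for 6 of the 10, against 57.0%. These counts depended on the scaling. With median-of-ratios size factors culture 2 was highest for 4 of the 10 genes, against 17.1% of the 10474 genes, and culture 3 for 4, against 60.8%. When scaled to protein-coding reads culture 1 was lowest for 4 of the 10, against 34.6% of the 10474 genes. The median log2 ratio of those genes in culture 3 over culture 1 was 0.17 as deposited, 0.40 with the size factors and -0.16 scaled to protein-coding reads. The smooth muscle contractile markers were also highest in culture 2, with a summed level of 217, 1223 and 312 RPKM over 8 markers in cultures 1, 2 and 3. Most of that sum came from ACTA2 (107, 817 and 143 RPKM) and TAGLN (107, 384 and 163 RPKM). Of these 8 markers 3 lay above 1 RPKM and 1, MYH11, below (all genes, 30.6% and 60.8%). The other 4 were not separated from 1 RPKM. The part of these markers in the levels of the elastic fibre genes was not tested.

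Further genes of elastic fibre assembly, binding and breakdown were expressed to differing degrees. Of 61 genes measured in 7 lists, the limma test put 38 (62.3%) above 1 RPKM and 14 (23.0%) below. Over all 29479 genes with a read, the shares were 30.6% and 60.8%. All 5 lysyl oxidases, which crosslink tropoelastin and collagen, lay above. LOXL2 had 102, 182 and 242 RPKM in cultures 1, 2 and 3, and LOX itself 94.9, 102 and 85.1, a range of 1.19-fold. LOXL1, the family member most closely tied to elastin renewal in mice, was lower at 4.51, 10.6 and 4.47 RPKM. LOXL4 had 3.17, 11.9 and 8.75 RPKM. LOXL3 had 3.07, 9.90 and 6.07 RPKM and overlaps HTRA2 and AUP1, so that its reads may include theirs. LOX thus stood above ELN, FBLN5 and EFEMP2 on the RPKM scale, in 3 of 3 cultures.

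Latent TGF-beta binding proteins tie TGF-beta to microfibrils, and LTBP4 also guides fibulin 5 to the scaffold. Of 7 genes for these proteins and for TGF-beta ligands, 6 lay above 1 RPKM and 0 below (all genes, 30.6% and 60.8%). LTBP1 had 84.1, 157 and 173 RPKM in cultures 1, 2 and 3, and LTBP2 15.8, 43.2 and 32.0. LTBP4 had 0.893, 1.39 and 1.53 RPKM and was not separated from 1 RPKM (limma, adjusted p = 0.40). The ligand TGFB2 was highest of the ligands at 48.1, 23.5 and 72.9 RPKM.

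Relatives of the 10 genes split evenly, with 6 of 13 above 1 RPKM and 6 below (all genes, 30.6% and 60.8%). The highest were EMILIN2 (14.9, 37.3 and 23.2 RPKM in cultures 1, 2 and 3) and MFAP1 (14.7, 16.9 and 17.9), a splicing factor despite its name. The hemicentin HMCN2 was lowest at 0.030 ± 0.016 RPKM (SD, n = 3). A pair of genes were chosen after their values were seen. MFAP5, the closest relative of MFAP2, had 0.945, 3.18 and 1.76 RPKM, above 1 RPKM with all cultures (limma, adjusted p = 0.032) but not with culture 1 (adjusted p = 0.050), culture 2 (adjusted p = 0.43) or culture 3 (adjusted p = 0.14) left out. EFEMP1, which encodes fibulin 3, had 0.504, 0.645 and 0.620 RPKM and was not separated from 1 RPKM (limma, adjusted p = 0.054). It lay below 1 RPKM with a pseudocount of 0.1 RPKM (limma, adjusted p = 0.049) or 1 RPKM (adjusted p = 0.018), with voom weights (adjusted p = 0.013) and when no filter was used (adjusted p = 0.032). It did not with median-of-ratios size factors (limma, adjusted p = 0.056) or scaling to protein-coding reads (adjusted p = 0.17). Nor did it with culture 1, 2 or 3 left out (limma, adjusted p = 0.062, 0.12 and 0.13).

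**Figure D4:**
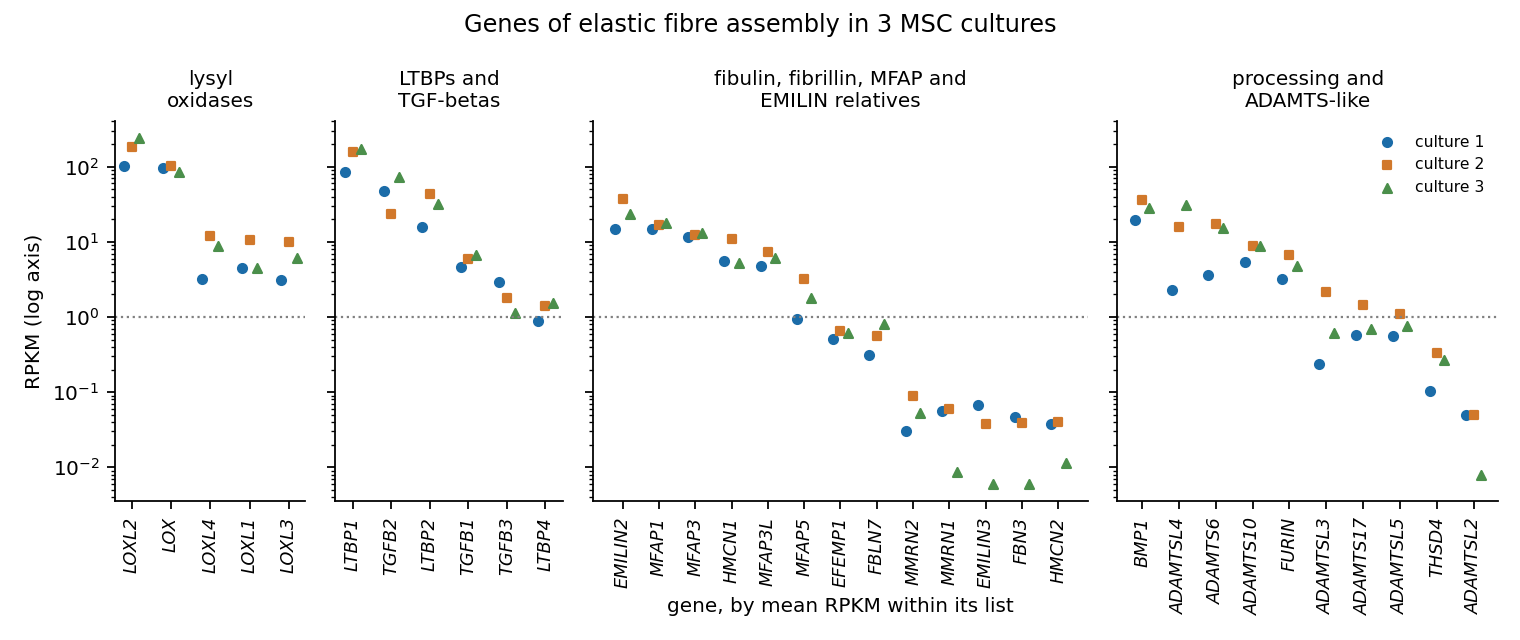
RPKM in cultures 1, 2 and 3 (points, log axis) of genes in 4 lists of elastic fibre assembly, ordered by mean within each list, with 1 RPKM as a dotted line. All 5 lysyl oxidases stand above the line in each culture, while the fibulin, fibrillin, MFAP and EMILIN relatives spread on both sides of it.

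Of 10 genes that process microfibril proteins or are ADAMTS-like, 4 lay above 1 RPKM and 2 below (all genes, 30.6% and 60.8%). BMP1, a protease that activates lysyl oxidase, had 27.7 ± 8.06 RPKM (SD, n = 3). ADAMTSL4, which binds fibrillin and whose loss displaces the lens in humans, had 2.30, 15.9 and 30.6 RPKM in cultures 1, 2 and 3 and was not separated from 1 RPKM (limma, adjusted p = 0.081), although 3 of 3 cultures stood above it. Leaving out culture 1, 2 or 3 put ADAMTSL4 above (limma, adjusted p = 0.0035, 0.037 and 0.0019). So did median-of-ratios size factors (adjusted p = 0.041), no filter (adjusted p = 0.0090) and a filter of 1 RPKM in some library (adjusted p = 0.021). The other pseudocounts, scaling to protein-coding reads and voom weights did not (limma, adjusted p = 0.059 to 0.10). The cause was not tested. ADAMTSL2 was lowest at 0.036 ± 0.024 RPKM. Of 8 measured proteases that can cleave elastin or its scaffold, 4 lay above and 3 below. MMP2 (449 ± 69.2 RPKM) and MMP14 (178 ± 41.0), which activates it, were highest, and neutrophil elastase (ELANE) lowest at 0.057 ± 0.023, an entry that overlaps MED16 and CFD.

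Of 10 genes listed for the elastin receptor (GLB1, NEU1 and CTSA) and for integrins that bind elastic fibres, 8 lay above 1 RPKM and 1 below (all genes, 30.6% and 60.8%). These levels are per gene and do not separate transcripts of a gene. ITGB1 had 97.5, 273 and 240 RPKM in cultures 1, 2 and 3, and ITGA8, which pairs with it, 22.3, 76.7 and 46.2. The epithelial subunit ITGB6 was lowest at 0.066 ± 0.026 RPKM (SD, n = 3). Among 8 matrix partners of elastic fibres, 5 lay above and 2 below. Fibronectin (FN1), on which fibrillin assembly depends in culture, had 1512, 5669 and 13550 RPKM, and decorin (DCN) 875, 720 and 1248. Tenascin X (TNXB), which overlaps ATF6B, was lowest at 0.046 ± 0.015 RPKM.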

How the data were processed

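The authors deposited 1 table with RPKM values (reads divided by gene length and library depth), per the file headers, with 1 column for each of 3 MSC libraries. Per the labels' protocols, RNA came from the miRNeasy kit and libraries from 0.5 µg with the TruSeq V2 kit. Per the submitters' processing notes, the build was susScr11. The aligner, the counter, the annotation release and the strandedness were not given in the sources used here. The gene model length (other column, per the file headers) plus 1 base turned 100% of the values into whole reads, within 1e-06 of a read. For a 2 kb model, the limit that a count of 0 allows (3 reads) is 0.029 RPKM in culture 1, 0.024 in culture 2 and 0.023 in culture 3, and intervals and floors cover counting error only.

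Tests ran on log2(RPKM + 0.5) with limma 3.58.1 (R 4.3.3), with trended, robust prior variances, Benjamini-Hochberg adjustment and a threshold of 0.05. The log2 levels of the tests understate differences of genes near the pseudocount, while folds and ratios between cultures or genes are of RPKM with no pseudocount. The level test covered genes with at least 1 read, and the spread test those with a mean of at least 1 RPKM, which left out FBN2. On simulated data the level test called 100% of genes simulated at 4 RPKM and, at 1 RPKM, 5%, over 29479 genes. With unchanged genes alike in spread, the spread test called 61% of genes given a log2 SD of 2, over 10474 genes. Intervals of reads are exact Poisson intervals.

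The genes and lists were chosen with earlier results of these data known. Named are each of the 10 genes, the 2 highest and the lowest of each list by mean RPKM, every lysyl oxidase and every latent TGF-beta binding protein, and other genes are marked as chosen later. A gene that this rule names is not reported here. CTSK and CELA1 were not matched by name. Alternatives covered the pseudocount, filters, scaling, voom weights, a level of 5 RPKM and leaving out each culture.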

Additional observations from a re-analysis of the deposited data

How the results depend on the processing

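The count of the 10 genes above 1 RPKM (7) and below (1) stayed within 1.5 times under the other pseudocounts, scalings, voom weights and left-out cultures. With genes under 1 RPKM in each library left out, FBN2 was not tested, and 0 of the 10 genes and 0 pathway genes lay below. MMP12, named after its values were seen, was still tested (0.0679, 0.403 and 1.14 RPKM in cultures 1, 2 and 3). It lay below in the main fit (limma, adjusted p = 0.020) but not under this filter. Against 5 RPKM, 4 of the 10 genes lay above and 3 below, and 24 pathway genes lay below. Log2 levels relative to 5 RPKM were then negative for ELN (-1.72), FBLN1 (-1.23), EMILIN1 (-0.88), MFAP5 (-1.26) and LTBP4 (-1.65), as the higher level implies. Relative to 1 RPKM, FBLN1 was at -0.51 without culture 1, and ELN ran between -0.092 and 0.34 with a culture left out. Spread calls among the 10 genes numbered 0, but 2 with no filter on the mean. Leaving out 1 culture gave 0 to 2 spread calls, 6 to 8 of the 10 genes above and 1 below, 36 to 38 pathway genes above and 12 to 15 below. Mean log2 ratios over cultures left out in turn were -7.79 to -7.07 for ELN over FBN1, -10.6 to -9.25 for FBN2 over FBN1, 1.98 to 6.13 for FBLN2 over FBLN1, -0.61 to -0.40 for EFEMP2 over FBLN5, -2.42 to -1.03 for MFAP4 over MFAP2, -6.65 to -6.20 for EMILIN1 over FBN1 and -4.18 to -3.08 for MFAP2 over FBN1. Taken over reads, not divided by length, the ratio was -9.49 for ELN over FBN1, -0.14 for EFEMP2 over FBLN5, -7.38 for EMILIN1 over FBN1 and -5.85 for MFAP2 over FBN1. With a pseudocount of 0.5 RPKM, FBN2 over FBN1 was -8.13. The summed level was 262 to 363 RPKM with a culture left out. Beyond what the construction of an alternative shows, the cause was not tested. No paired analysis was possible because the labels name a single group. Depth limits FBN2 (54 to 206 reads) and ELN (121 to 272 reads) in each culture, and FBLN1 in culture 3 (53 reads).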
